A study of Mus musculus with 6 samples.

Results

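The 37 genes of mouse mitochondrial DNA were followed in RNA from atrioventricular canal (AVC) regions of embryonic hearts. They were defined by position alone, as every gene on the mitochondrial chromosome in the annotation of mm9. The choice to follow them was made with earlier results of these data known. All 37 were listed among the 18810 genes of the table. They comprised 13 protein-coding genes, 2 rRNA genes and 22 tRNA genes, of which 28 lay on the plus strand and 9 on the minus strand of a chromosome of 16299 bases. In the comparison of Scx-/- with Scx+/+ hearts, 8 of the 22 tRNA genes were lower in Scx-/- at an unadjusted p below 0.05 and none of the 37 genes was higher, where 1.06% of all genes were called lower and 2.82% higher. No change passed adjustment for the number of genes tested, and the 8 calls fell to as few as 2 when 1 library was left out. None of the 13 mRNAs was called in either direction, and both rRNAs were lower on average in Scx-/- without passing the test.

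Each AVC sample was the valve-bearing part of the heart, with most of the muscle wall cut away. The samples came from Scx-/- embryos (n = 3), which lack the transcription factor Scleraxis throughout the body, and from Scx+/+ littermates (n = 3), all C57BL/6 and at embryonic day 15.5. Total RNA was extracted with Trizol from tissue that was not sorted into cell types, and each heart gave 1 library, named below by genotype and replicate number. The comparison asked which transcripts depend on Scx when the valves begin to remodel.

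Mitochondrial DNA is transcribed from both strands as long precursors. In these precursors tRNAs stand between most of the rRNAs and mRNAs, and the enzymes that cut tRNAs out at both ends thereby release the RNAs beside them. The mRNAs encode core subunits of the respiratory chain complexes I, III and IV and of ATP synthase, complex V. The rRNAs and tRNAs serve only the ribosomes inside mitochondria, and every protein that acts on them is encoded in the nucleus. The heart is rich in mitochondria and in these transcripts.

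The sequences of the 8 called tRNA genes, and of mt-Ty as the uncalled neighbour of 4 of them, are given below from mm9 in the 5′ to 3′ direction of each gene, with the anticodon in capitals, because the calls between genotypes were all among these short genes. They are 59 to 71 bases long, and anticodons were found by their place in a loop closed by paired bases.
mt-Tf (tRNA for phenylalanine, chrM:1-68, plus strand): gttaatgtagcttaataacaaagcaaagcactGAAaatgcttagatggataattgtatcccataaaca
mt-Tv (valine, chrM:1025-1093, plus strand): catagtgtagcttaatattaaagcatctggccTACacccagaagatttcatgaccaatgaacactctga
mt-Tw (tryptophan, chrM:4950-5016, plus strand): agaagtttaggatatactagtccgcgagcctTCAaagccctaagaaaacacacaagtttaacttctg
mt-Ta (alanine, chrM:5018-5086, minus strand): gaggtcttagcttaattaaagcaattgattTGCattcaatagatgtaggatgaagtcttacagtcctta
mt-Tn (asparagine, chrM:5089-5159, minus strand): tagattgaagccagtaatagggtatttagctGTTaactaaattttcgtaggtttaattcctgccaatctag
mt-Tc (cysteine, chrM:5192-5257, minus strand): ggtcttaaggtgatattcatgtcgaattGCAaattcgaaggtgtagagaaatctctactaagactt
mt-Ty (tyrosine, chrM:5260-5326, minus strand): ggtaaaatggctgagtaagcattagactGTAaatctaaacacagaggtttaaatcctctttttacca
mt-Tr (arginine, chrM:9808-9875, plus strand): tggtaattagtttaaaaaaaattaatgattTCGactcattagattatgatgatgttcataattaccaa
mt-Ts2 (serine, chrM:11613-11671, plus strand): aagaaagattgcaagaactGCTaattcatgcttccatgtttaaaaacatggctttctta

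Values are RPKM, reads per kilobase of exon, scaled to the depth of the library, which allow levels to be compared between genes per length. Depth recovered from the RPKM steps was 46429988 to 68571049 reads per library. In Scx+/+ 2, the 10 most abundant genes of the whole table held 56.9% of the RPKM sum, against 30.7% to 43.9% in the other 5 libraries. RPKM of the targeted gene Scx, counted over the whole gene, ran from 18.6 to 82.9 in the libraries labelled Scx-/- (33.6 in Scx-/- 1) and from 26.0 to 58.3 in those labelled Scx+/+ (29.5 in Scx+/+ 1), which does not check the genotype labels, since exon 1, by which the study verified the genotypes, is not listed apart from the rest of the gene. Each of the 12 valve mesenchyme markers listed was detected, led by Postn at a mean of 254 RPKM, and their summed level was 676 to 892 RPKM in Scx-/- and 598 to 671 in Scx+/+. The 17 cardiomyocyte genes summed to 25791 to 37273 RPKM in Scx-/- and 23209 to 42046 in Scx+/+, so that heart muscle RNA was present in every library. In such tissue fewer cells of a type and less RNA per cell cannot be told apart.

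Reads that fell in the 37 genes made up 7.36%, 5.52% and 10.5% of the reads of Scx-/- 1 to 3 and 6.72%, 8.91% and 5.82% of those of Scx+/+ 1 to 3. The genotypes overlapped, with the highest and the lowest share both in Scx-/-, and the means differed by 0.626 percentage points. Without Scx-/- 3, the difference was -0.713 points, and without Scx+/+ 3 it was -0.0373 points. The rank of Scx+/+ 2 depended on the denominator. Its share of all reads counted, a measure chosen after seeing the data, was 5.96%, below 6.58% in Scx+/+ 1. As a share of the RPKM sum it was the lowest library, at 4.08%. The 13 mRNAs took 5.01% to 9.49% of the reads of a library, and mt-Co1 by itself held 50.4% to 57.6% of those mRNA reads. The rRNAs took 0.354% to 1.58% and the tRNAs 0.0126% to 0.0277%, the highest of both in Scx+/+ 2. The libraries highest in mitochondrial mRNA reads relative to depth, Scx-/- 3 and Scx+/+ 2, were also highest in the cardiomyocyte sum, at 37273 and 42046 RPKM. The nuclear-encoded subunits of the same complexes summed to 18658 and 23034 RPKM in them, against 10569 to 14399 in the other 4 libraries. The part of muscle content in the mitochondrial levels was not tested.

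**Figure D1:**
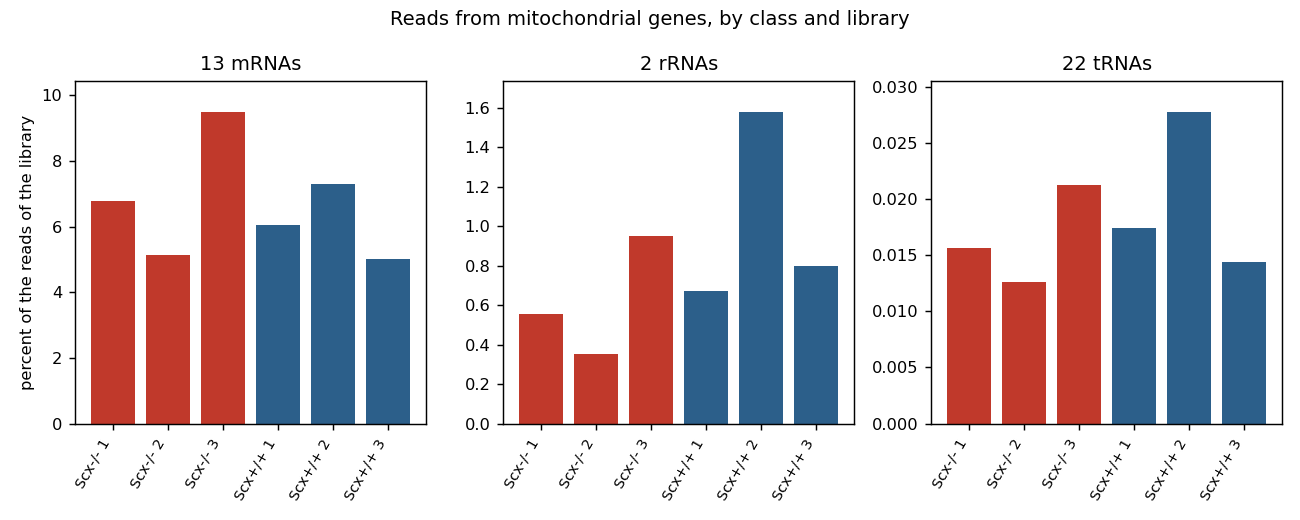
Percent of the reads of each library (vertical axes, starting at 0) that fell in the 13 mRNAs, the 2 rRNAs and the 22 tRNAs of mitochondrial DNA, with 1 bar per library, red for Scx-/- and blue for Scx+/+. The mRNA share was highest in Scx-/- 3 (9.49%), the rRNA and tRNA shares in Scx+/+ 2 (1.58% and 0.0277%), and the genotypes overlapped in each class.

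Both rRNA genes lie near the start of the chromosome, where mt-Tf, mt-Rnr1, mt-Tv and mt-Rnr2 follow each other with at most 1 base between them. The small-subunit rRNA, mt-Rnr1 (chrM:70-1024), was 472, 286 and 681 RPKM in Scx-/- 1 to 3 and 750, 833 and 650 RPKM in Scx+/+ 1 to 3. Scx-/- 1 and 2 lay below every Scx+/+ library, and Scx-/- 3 above Scx+/+ 3 alone. The log2 fold change was -0.71 (SE 0.32) and was not called (limma, unadjusted p = 0.0541, adjusted p = 0.967). The large-subunit rRNA, mt-Rnr2 (chrM:1094-2675), was 3217, 2066 and 5590 RPKM in Scx-/- and 3788, 9473 and 4659 RPKM in Scx+/+. Its genotypes overlapped through Scx-/- 3, and its log2 fold change of -0.72 (SE 0.54) was not called (limma, unadjusted p = 0.211, adjusted p = 0.967). mt-Rnr2 was 5.05 to 11.4 times as high as mt-Rnr1 per length, although ribosomes hold the products of both in equal number.

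Among the mRNAs, mt-Co1 had the highest mean over the 6 libraries at 23218 RPKM, followed by mt-Co3 at 11074, mt-Nd3 at 10140, mt-Co2 at 8996, mt-Atp8 at 5560, mt-Atp6 at 4576, mt-Nd1 at 2771, mt-Cytb at 1213, mt-Nd4 at 928, mt-Nd5 at 771, mt-Nd4l at 721, mt-Nd2 at 639 and mt-Nd6 at 401 RPKM. Each gene was above the next of this order in all 6 libraries, except that mt-Co3 over mt-Nd3, mt-Nd3 over mt-Co2 and mt-Nd4 over mt-Nd5 held in 5 libraries and mt-Nd5 over mt-Nd4l in 3. Within 1 library the highest mRNA was 36.8 to 90.9 times the lowest. The 3 subunits of complex IV were among the 4 highest, whereas 6 of the 7 subunits of complex I stood at the lower end and mt-Nd3 was the exception.

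**Figure D2:**
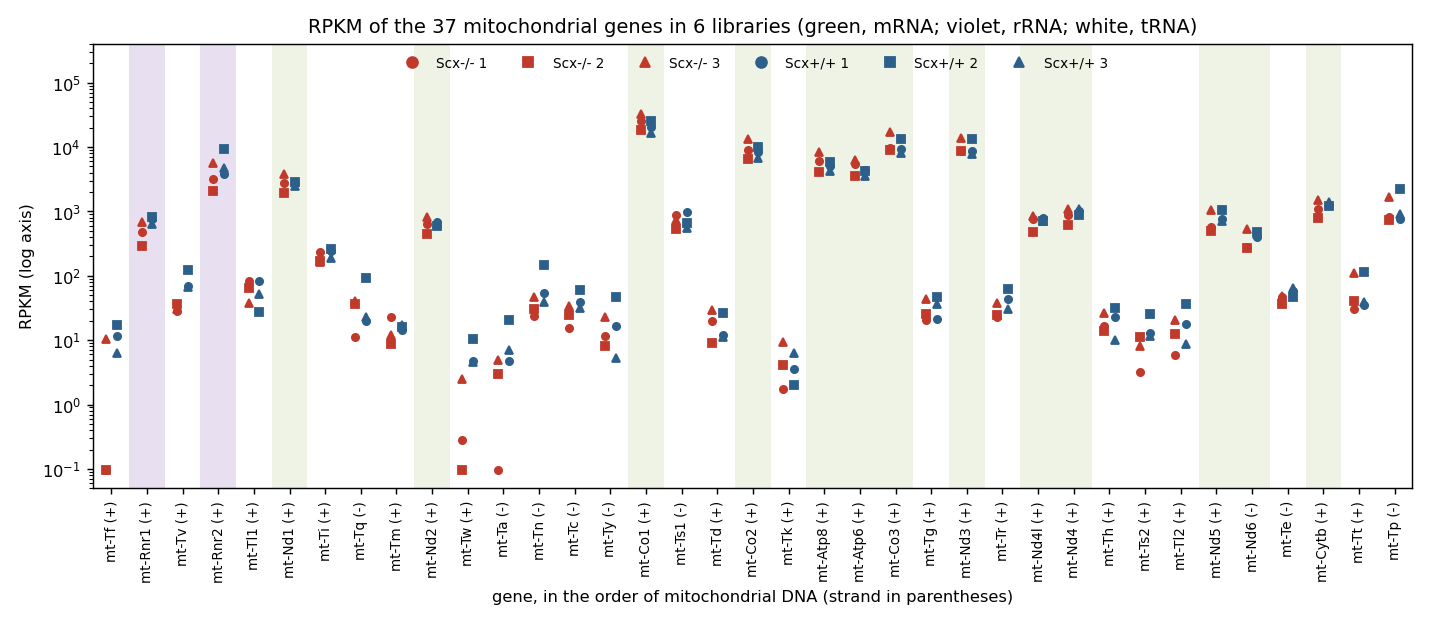
RPKM (vertical log axis) of the 37 genes in the order of the chromosome, with red marks for Scx-/- and blue for Scx+/+ and circles, squares and triangles for replicates 1, 2 and 3. mRNAs ranged from mt-Nd6 to mt-Co1 above 270 RPKM in every library, most tRNAs lay well below them, and in mt-Tv, mt-Tw and mt-Ts2 every red mark is under every blue mark.

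Complex I, the NADH dehydrogenase, draws 7 of its core subunits from mitochondrial DNA. mt-Nd1 was 2754, 1955 and 3808 RPKM in Scx-/- and 2741, 2860 and 2507 RPKM in Scx+/+. mt-Nd2 was 645, 446 and 817 RPKM against 682, 601 and 646 RPKM. mt-Nd3 was 8640, 8612 and 13794 RPKM against 8623, 13248 and 7922 RPKM. In these 3 genes the Scx+/+ libraries lay inside the range of the Scx-/- libraries, apart from Scx+/+ 3 in mt-Nd3. mt-Nd4l was 772, 479 and 843 RPKM against 802, 712 and 715 RPKM. mt-Nd4 was 870, 609 and 1083 RPKM against 1021, 885 and 1099 RPKM. mt-Nd5 was 578, 495 and 1047 RPKM against 755, 1037 and 712 RPKM. The genotypes overlapped in each, with Scx-/- 2 the lowest library of all 3 genes. mt-Nd6, the only mRNA of the minus strand, was 278, 273 and 531 RPKM against 407, 471 and 444 RPKM, with Scx-/- 1 and 2 below and Scx-/- 3 above every Scx+/+ library. Its log2 fold change of -0.36 (SE 0.28) was the lowest of the 13 mRNAs and was not called (limma, unadjusted p = 0.237, adjusted p = 0.967). Over the 7 genes the median log2 fold change was -0.13, and 0 were called.

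Complex III has 1 subunit from this genome, the cytochrome b of mt-Cytb, which was 1102, 779 and 1534 RPKM in Scx-/- and 1278, 1199 and 1387 RPKM in Scx+/+. The Scx+/+ values lay inside the Scx-/- range. The 3 genes of complex IV, cytochrome c oxidase, were highest in Scx-/- 3. mt-Co1, whose product holds the site that reduces oxygen, was 25303, 18405 and 33243 RPKM against 20845, 25169 and 16345 RPKM. mt-Co2 was 9039, 6642 and 13237 RPKM against 8333, 10008 and 6713 RPKM. mt-Co3 was 9556, 8959 and 17316 RPKM against 9436, 13153 and 8021 RPKM. The genotypes overlapped in all 3, and their log2 fold changes were 0.28 (SE 0.75), 0.17 (SE 0.54) and 0.19 (SE 0.58).

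Complex V takes mt-Atp6, part of the proton channel, and the small mt-Atp8 from mitochondrial DNA. mt-Atp8 was 5976, 4049 and 8257 RPKM in Scx-/- and 5032, 5797 and 4248 RPKM in Scx+/+. mt-Atp6 was 5494, 3545 and 6197 RPKM against 4412, 4224 and 3586 RPKM. Scx-/- held both the highest and the lowest library of the pair. These genes share 43 bases on the plus strand (mm9, chrM:7927-7969, in capitals within 10 bases on either side), so that reads of this stretch count for both reading frames.
mt-Atp8 and mt-Atp6: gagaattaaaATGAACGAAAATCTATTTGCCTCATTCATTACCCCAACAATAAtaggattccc
Their RPKM moved together, mt-Atp8 being 1.09 to 1.37 times mt-Atp6 in the 6 libraries. Over all 13 mRNAs log2 fold changes ran from -0.36 to 0.28, with 7 above and 6 below 0, and Scx-/- 3 was the highest library in 12 of the 13 and Scx-/- 2 the lowest in 10. Of all genes tested, 3.89% were called, and 0 of the 13 mRNAs.

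The tRNA genes were read far less than the mRNAs. Their means ran from 3.80 to 1186 RPKM with a median of 33.4 RPKM, and the 22 genes together gave 8199 to 12878 reads per library. Their spread was wider, with a coefficient of variation over the 6 libraries of 19.5% to 107% (median 56.4%) against 17.8% to 31.8% (median 26.0%) for the mRNAs. The highest was mt-Tp (proline), at 809, 743 and 1662 RPKM in Scx-/- and 767, 2218 and 914 RPKM in Scx+/+. mt-Ts1 (serine) was 878, 537 and 726 RPKM against 987, 654 and 547 RPKM, and its last 3 bases lie on the strand opposite to the end of mt-Co1. mt-Ti (isoleucine) was 238, 172 and 162 RPKM against 241, 257 and 186 RPKM. These 3 genes overlapped between genotypes and stood apart from the other tRNAs, since mt-Ti was above the next gene, mt-Tt, in all 6 libraries. The lowest were mt-Tw, mt-Tk and mt-Ta. mt-Tk (lysine) was 1.76, 4.13 and 9.53 RPKM in Scx-/- and 3.59, 1.99 and 6.28 RPKM in Scx+/+, from 6 to 37 reads, and overlapped. No source used here names the strand of the counting, so reads of a tRNA and of an antisense precursor cannot be told apart. Reads of uncut sense precursors and of genes that abut or overlap a tRNA gene may count for it as well. RPKM of a tRNA gene is therefore not a level of the finished tRNA alone.

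Of the 22 tRNA genes, 8 (36.4%) were lower in Scx-/- at an unadjusted p below 0.05 and 0 were higher. Of all 18810 genes, 1.06% were called lower, 2.82% higher and 3.89% in either direction. None of the 8 passed adjustment. Log2 fold changes were below 0 for 19 of the 22 tRNA genes and for 6814 of all 18810 genes, with medians of -0.35 and 0.10. The calls stood on both strands, with 5 of 14 tRNA genes of the plus strand and 3 of 8 of the minus strand. Among other short RNAs of the table, the nuclear snoRNA genes were called lower in 27 of 449 (6.01%) and higher in 30, miRNA genes lower in 20 of 388 (5.15%) and higher in 14, and snRNA genes lower in 11 of 304 (3.62%) and higher in 5. The snRNA genes too lay mostly below 0 (207 of 304, median -0.28), whereas the medians were 0.07 for snoRNA and 0.03 for miRNA genes. Without Scx+/+ 2, which was the highest library in 16 of the 22 tRNA genes, 3 of the 37 mitochondrial genes were called, and omitting any library left 2 to 8.

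**Figure D3:**
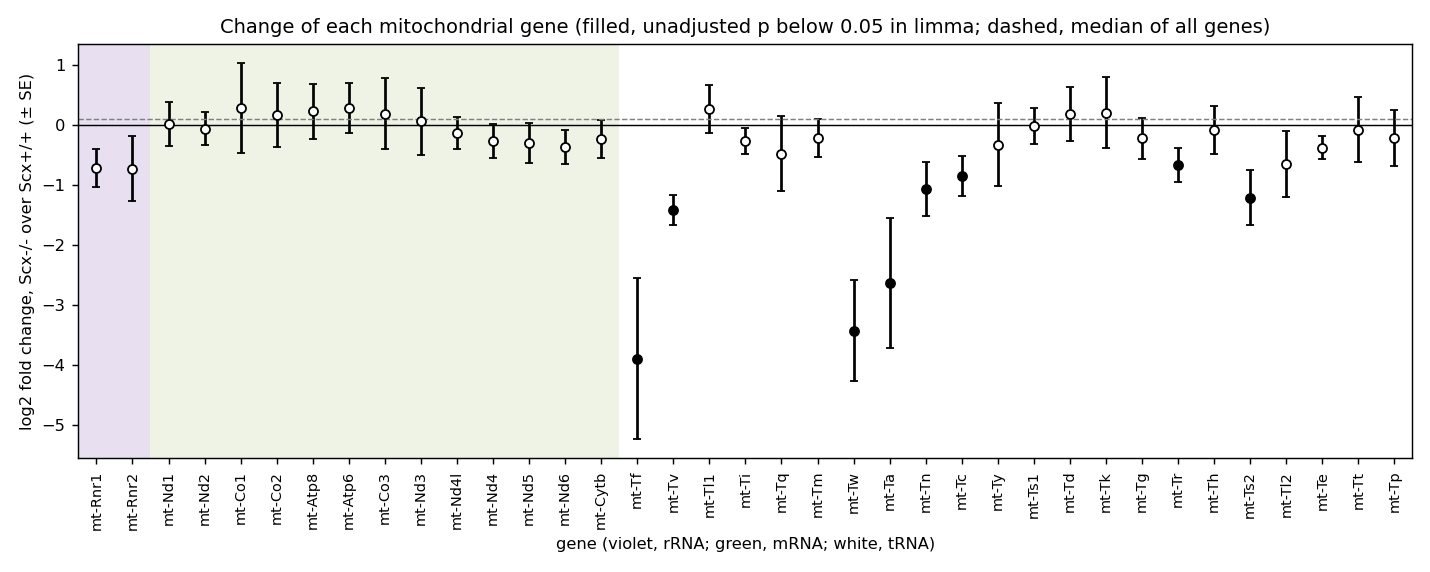
Log2 fold change of Scx-/- over Scx+/+ on log2(RPKM + 0.1), with its standard error from limma, for the rRNAs, the mRNAs and the tRNAs, each class in chromosome order. Filled points mark the 8 genes at an unadjusted p below 0.05, all of them tRNAs below 0, and the dashed line marks the median of all genes, 0.10.

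The valine tRNA mt-Tv, which lies between the rRNA genes and in some mammals is itself a structural part of the mitochondrial ribosome, differed most regularly. It was 28.5, 35.9 and 30.1 RPKM in Scx-/- and 70.5, 124.5 and 66.6 RPKM in Scx+/+. The reads behind these values numbered 103, 166 and 124 in Scx-/- and 292, 399 and 315 in Scx+/+. Every Scx-/- library lay below every Scx+/+ library, and the highest Scx-/- value was far under the lowest Scx+/+ value. The log2 fold change was -1.41 (SE 0.25; limma, unadjusted p = 0.000326, adjusted p = 0.681). It was called in all 17 alternatives, and its log2 fold change stayed between -1.58 and -1.13 when any library was omitted. The phenylalanine tRNA mt-Tf, at the very start of the chromosome, was at the fill-in value of the table (0.0949 RPKM, less than 1 read for a gene this short) in Scx-/- 1 and 2 and 10.6 RPKM in Scx-/- 3, and 11.8, 17.1 and 6.43 RPKM in Scx+/+. These values came from 0, 0 and 43 reads and from 48, 54 and 30 reads. Scx-/- 3 lay above Scx+/+ 3. The log2 fold change of -3.89 (SE 1.34; limma, unadjusted p = 0.0178, adjusted p = 0.967) depended on the libraries without reads, and was -4.48 with a pseudocount of 0.01 and -2.32 with a pseudocount of 1.

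Between mt-Nd2 and mt-Co1 lies a run of 5 tRNA genes, mt-Tw on the plus strand and mt-Ta, mt-Tn, mt-Tc and mt-Ty on the minus strand. It is known for holding the origin from which the light strand is replicated, in the 32 bases between mt-Tn and mt-Tc. mt-Tw was 0.285 RPKM, the fill-in value and 2.50 RPKM in Scx-/- and 4.72, 10.6 and 4.57 RPKM in Scx+/+. Its reads numbered 1, 0 and 10 in Scx-/- and 19, 33 and 21 in Scx+/+. The genotypes did not overlap, and the log2 fold change was -3.42 (SE 0.84; limma, unadjusted p = 0.00282, adjusted p = 0.967), or -2.08 with a pseudocount of 1. mt-Ta gave 0, 14 and 20 reads in Scx-/- and 20, 66 and 33 reads in Scx+/+, or 0.0949, 3.03 and 4.85 RPKM against 4.83, 20.6 and 6.97 RPKM. Scx-/- 3 and Scx+/+ 1 were level in reads, and the log2 fold change was -2.63 (SE 1.09; limma, unadjusted p = 0.0386, adjusted p = 0.967), or -1.76 with a pseudocount of 1.

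mt-Tn was 23.7, 30.3 and 46.9 RPKM in Scx-/- and 54.2, 146.2 and 39.2 RPKM in Scx+/+. Scx-/- 3 lay above Scx+/+ 3, and Scx+/+ 2 was high. The log2 fold change was -1.07 (SE 0.45; limma, unadjusted p = 0.0429, adjusted p = 0.967). mt-Tc was 15.3, 24.4 and 34.5 RPKM against 39.4, 61.0 and 31.6 RPKM, with the same pair of libraries overlapping and a log2 fold change of -0.85 (SE 0.33; limma, unadjusted p = 0.0292, adjusted p = 0.967). mt-Ty, the last gene of the run, was 11.4, 8.02 and 22.7 RPKM against 16.4, 47.6 and 5.22 RPKM. Scx+/+ held both its highest and its lowest library, and it was not called (log2 fold change -0.32, SE 0.70; limma, unadjusted p = 0.653, adjusted p = 0.980).

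The other called tRNA genes lie further along the plus strand. mt-Ts2, the shortest tRNA gene at 59 bases, gave 10, 45 and 29 reads in Scx-/- and 46, 70 and 47 reads in Scx+/+. Per length these were 3.24 to 11.4 RPKM in Scx-/- and 11.6 to 25.6 RPKM in Scx+/+. The genotypes did not overlap, although Scx-/- 2 and Scx+/+ 3 were close, and the log2 fold change was -1.21 (SE 0.46; limma, unadjusted p = 0.0277, adjusted p = 0.967). mt-Tr, between mt-Nd3 and mt-Nd4l, was 23.3, 24.4 and 37.9 RPKM against 43.9, 63.3 and 30.9 RPKM, with Scx-/- 3 above Scx+/+ 3 and a log2 fold change of -0.66 (SE 0.29; limma, unadjusted p = 0.0474, adjusted p = 0.967). All Scx-/- libraries lay below all Scx+/+ libraries in 3 of the 37 genes, mt-Tv, mt-Tw and mt-Ts2, as in 2.31% of all genes. The reverse held in 0 of the 37 and in 1352 of all 18810 genes. Of the 8 called genes, mt-Tv and mt-Tw were called in every fit that left out a library, whereas mt-Tf, mt-Ta, mt-Tn and mt-Ts2 were called in 1 of those 6 fits and mt-Tc and mt-Tr in 2.

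**Figure D4:**
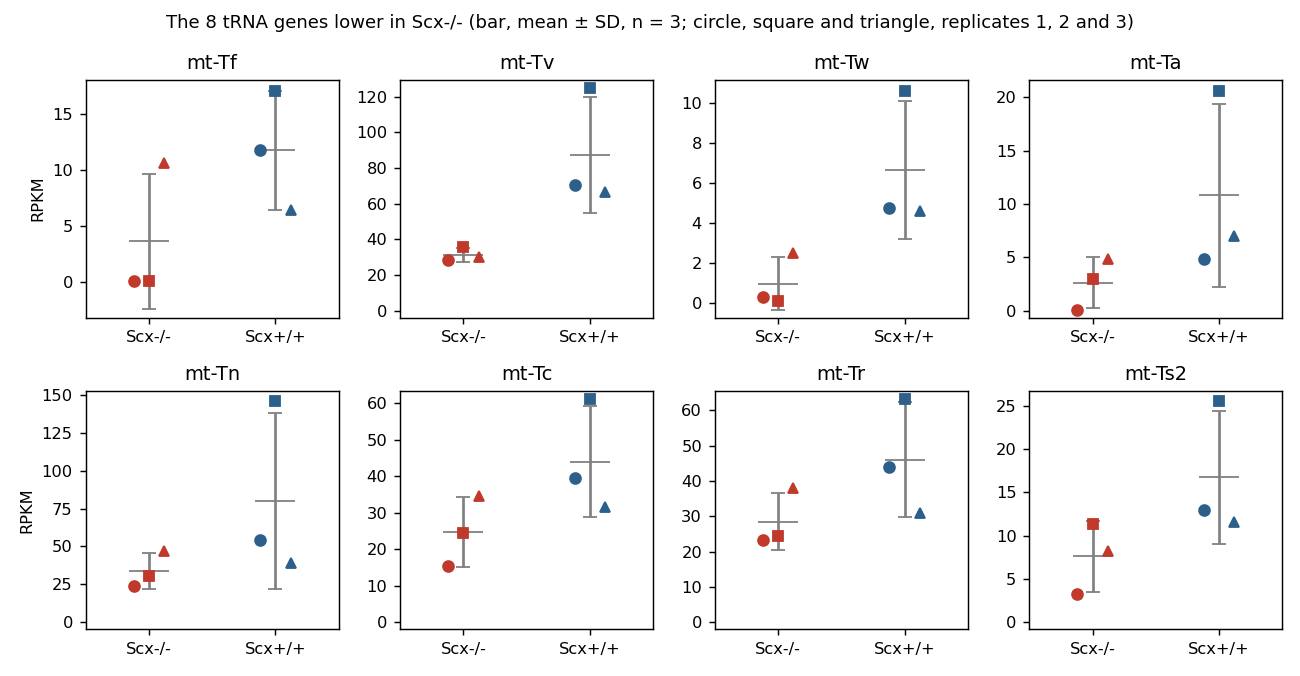
RPKM (vertical axes) of the 8 called tRNA genes in the 3 Scx-/- (red) and 3 Scx+/+ (blue) libraries, with grey bars for mean ± SD and circles, squares and triangles for replicates 1, 2 and 3. Both groups are apart in mt-Tv (28.5 to 35.9 against 66.6 to 124.5 RPKM), mt-Tw and mt-Ts2, and in the other 5 genes Scx-/- 3 reaches the Scx+/+ range.

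The remaining 14 tRNA genes were not called. They were mt-Tl1, mt-Tq, mt-Tm, mt-Td, mt-Tg, mt-Th, mt-Tl2, mt-Te and mt-Tt, with mt-Ti, mt-Ts1, mt-Tp, mt-Tk and mt-Ty described above. Log2 fold changes of these uncalled genes ran from -0.65 for mt-Tl2 to 0.27 for mt-Tl1, and those above 0 were mt-Tl1, mt-Td and mt-Tk. mt-Te, for glutamic acid, came nearest to the threshold at -0.38 (SE 0.19; limma, unadjusted p = 0.0783, adjusted p = 0.967).

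The mitochondrial genes were also compared with each other inside a library, by dividing each RPKM by the summed RPKM of the 13 mRNAs, which removes differences in total mitochondrial mRNA. On this relative scale both rRNAs separated the genotypes. mt-Rnr1 stood at 0.665%, 0.518% and 0.669% of the mRNA sum in Scx-/- 1 to 3 and at 1.17%, 1.05% and 1.20% in Scx+/+ 1 to 3. mt-Rnr2 stood at 4.53%, 3.74% and 5.50% against 5.89%, 11.9% and 8.57%. mt-Tv stood at 0.0296% to 0.0650% against 0.110% to 0.157%, and mt-Tf at 0.000134% to 0.0104% against 0.0118% to 0.0216%. The 4 genes at the start of the chromosome, mt-Tf, mt-Rnr1, mt-Tv and mt-Rnr2, were thus each lower in all 3 Scx-/- libraries, while mt-Nd1, the first mRNA beyond them, overlapped at 3.54% to 3.88% against 3.60% to 4.61%. This group of 4 neighbours was picked out after their values were seen.

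In all, 11 of the 37 genes lay lower in every Scx-/- library on the relative scale, against 2.42% of all genes divided by the same sums. They were both rRNAs, 7 tRNAs (mt-Tf, mt-Tv, mt-Tw, mt-Ta, mt-Tn, mt-Tc and mt-Tr) and the mRNAs mt-Nd5 and mt-Nd6, which overlap by 14 bases on opposite strands. mt-Nd5 was 0.814% to 1.03% against 1.17% to 1.31% of the mRNA sum, and mt-Nd6 was 0.392% to 0.523% against 0.594% to 0.817%. mt-Co1 was the only gene that lay higher in every Scx-/- library, at 32.7% to 35.6% against 30.1% to 32.4%, where 0.867% of all genes did. It is a large part of the sum, so that a higher mt-Co1 by itself lowers the percent of every other gene. Division by the sum takes out variation that mitochondrial genes share with it, but adds that variation to genes that do not follow it. The shares of all genes on this scale, also in the fit below, are therefore not a like background for the 37 genes. In limma on libraries scaled to an equal mRNA sum, 10 of the 37 genes were called lower, against 1.37% of all genes. They were both rRNAs and the 8 tRNAs called before. Of all 18810 genes, 21 passed adjustment in that fit, against 0 in the fit without this scaling. Adjusted p was then 0.00631 for mt-Tw, 0.00955 for mt-Tf and 0.0346 for mt-Tv in limma, whereas over the other alternatives no member was below 0.05 and adjusted p reached 1.00 for each. The log2 fold changes of the rRNAs under that scaling were -0.89 (SE 0.32) for mt-Rnr1 and -0.90 (SE 0.40) for mt-Rnr2 (limma, unadjusted p = 0.00818 and 0.0303). The scaling also changed the standard errors, from 1.34 to 0.76 for mt-Tf and from 0.25 to 0.33 for mt-Tv. The log2 fold change of mt-Tv moved less in proportion, from -1.41 to -1.59, yet its unadjusted p fell from 0.000326 to 3.15e-05 (limma). The scaling thus also changed how strongly limma pooled the spread over all genes, which were all divided by these sums. Adjusted p under it is therefore not comparable with that of the main fit.

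**Figure D5:**
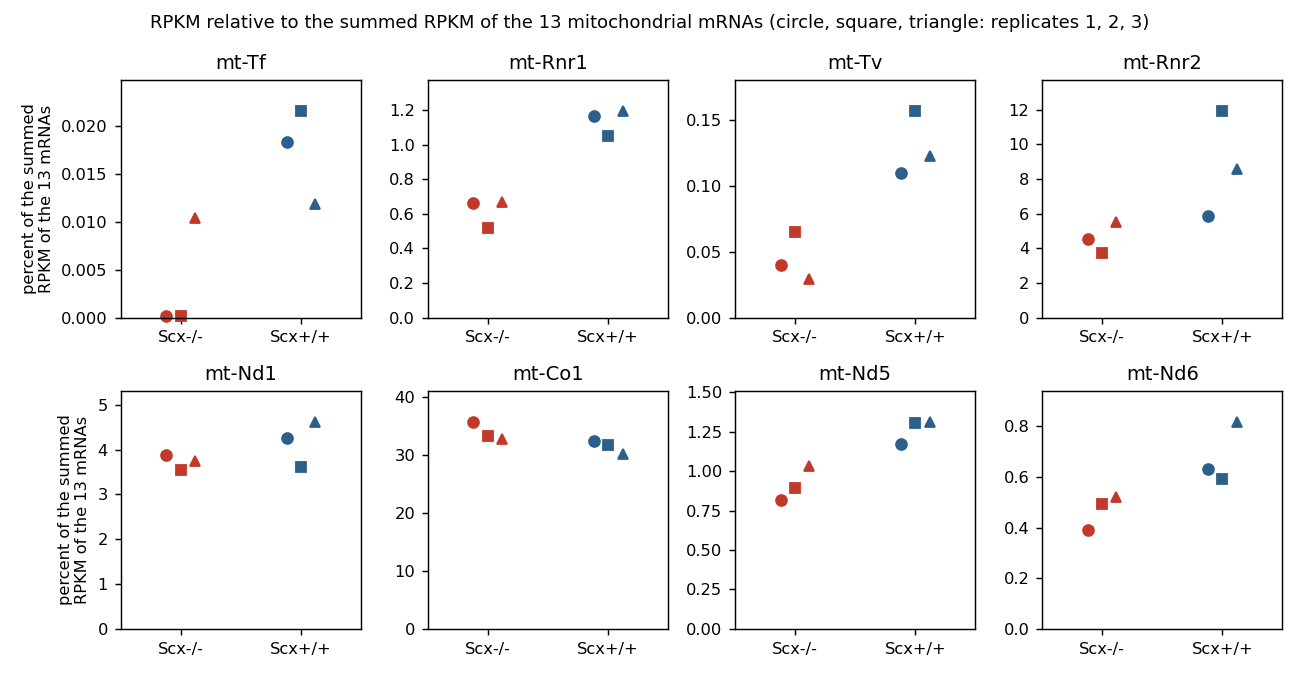
RPKM of 8 mitochondrial genes as a percent of the summed RPKM of the 13 mRNAs in the same library (vertical axes, from 0), red for Scx-/- and blue for Scx+/+. The top row holds the 4 genes at the start of the chromosome, all lower in Scx-/-, for example mt-Rnr1 at 0.518% to 0.669% against 1.05% to 1.20%, and in the bottom row mt-Nd1 overlaps, mt-Co1 is higher and mt-Nd5 and mt-Nd6 are lower in Scx-/-.

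The nuclear genome holds copies of mitochondrial DNA, which share its reads. In mm9, 14 nuclear stretches of at least 100 bases matched the mitochondrial chromosome at 90% identity or more, and 29 of the 37 genes touched at least 1 of them. The longest, on chromosome 1 (24618374 to 24623027), matched 4654 bases at 99.9% identity, from within mt-Co1 to within mt-Nd4. mt-Tv, mt-Tf and mt-Rnr1 touched no such copy, nor did mt-Nd1, mt-Ti, mt-Tq, mt-Tm and mt-Tl2, whereas mt-Tw, mt-Ta, mt-Tn and mt-Tc lay wholly in a copy on chromosome 2 (22442808 to 22446054, 97.4% identity). Of the other called tRNA genes, mt-Tr lay wholly, and mt-Ts2 with 50.8% of its bases, in copies of at least 99% identity. Genes annotated in the copies were listed at a share of the RPKM of the mitochondrial gene they match. Gm10222 on chromosome 1 had at least 99.9% of the RPKM of mt-Nd4l in each library, and Gm10925 had 109.5% to 114.6% of that of mt-Atp6. On chromosome 2, Gm13340 had 30.5% to 35.2% of mt-Co1, Gm13341 13.7% to 16.8% of mt-Co2 and Gm13339 16.7% to 23.2% of mt-Nd2. Less similar copies had less, with 0.711% to 0.942% of mt-Co1 for Gm11512 on chromosome 11 and, on chromosome 4, 0.926% to 1.65% of mt-Nd5 for Gm11407, 0.106% to 0.884% of mt-Nd6 for Gm11408 and 0.0262% to 0.0553% of mt-Cytb for Gm11410. The shares of Gm11407 and Gm11408 were highest in Scx+/+ 1. Gm11408 was low, at 0.498 to 3.59 RPKM, and whether these copies varied apart from the mitochondrial genes was not tested. Reads of a copy and of the mitochondrial gene cannot be told apart where the sequences are identical. The reads of all listed genes summed to 150% of the depth in Scx+/+ 2 and to 101% to 119% in the other libraries. Reads were thus counted at more than 1 gene, most of all in Scx+/+ 2.

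Nuclear genes that act on mitochondrial RNA or join its products were compared in the same fit. Of 285 genes in 8 lists, 4 were called, all higher in Scx-/- (1.4%, against 2.82% of all genes called higher), and 0 passed adjustment. Mrm2, listed under its older symbol Ftsj2, methylates the large-subunit rRNA of mitochondria and was 2.78, 2.77 and 2.44 RPKM in Scx-/- and 1.62, 0.746 and 1.04 RPKM in Scx+/+. The genotypes did not overlap, and the log2 fold change was 1.22 (SE 0.34; limma, unadjusted p = 0.00556, adjusted p = 0.967). The other 3 were the mitochondrial ribosomal protein genes Mrpl9, Mrps17 and Mrpl49, with log2 fold changes of 0.50, 0.52 and 0.51. They were 3 of 77 genes of that list, whose median was 0.11, near the 0.10 of all genes.

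In the other lists 0 genes were called. They held 15 genes for the transcription and replication of mitochondrial DNA, 21 for processing and stability of its RNA, 30 for charging and modification of its tRNAs, 30 for assembly of its subunits and 12 regulators of mitochondrial biogenesis, and the 78 nuclear subunits of complexes I, III, IV and V. Tfam, which packages mitochondrial DNA and starts its transcription, was 21.3, 17.3 and 20.8 RPKM in Scx-/- and 17.2, 21.8 and 14.6 RPKM in Scx+/+. Trnt1, which adds the CCA end to tRNAs, was 22 to 23.3 RPKM in Scx-/- and 14.6 to 26.8 RPKM in Scx+/+. Both overlapped between genotypes, with log2 fold changes of 0.16 (SE 0.20) and 0.18 (SE 0.22). The most abundant genes of the other lists were Ptcd3 at 0.17, Cox20, listed as Fam36a, at 0.15, Gabpa at 0.18, Cox6b1 at 0.09, Gfm1 at 0.05 and Mrpl42 at 0.36 on the log2 fold change scale, none of them called. Without Scx+/+ 2, 35 of the 285 genes were called, 34 higher and 1 lower, against 1549 of all genes.

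Marker lists of other cell types were read beside these results. Endothelial markers (8 genes) summed to 128 to 155 RPKM in Scx-/- and 128 to 146 in Scx+/+, smooth muscle (5 genes) to 478 to 672 against 446 to 541, erythroid genes (9) to 9505 to 14267 against 7812 to 14009, and macrophage markers (7) to 32.7 to 53.4 against 41.1 to 44.7 RPKM. Valve mesenchyme and epicardial sums did not overlap between genotypes, the latter at 20.3 to 26.5 RPKM in Scx-/- and 16.4 to 20.2 in Scx+/+ (6 genes), and no marker of any list was at the fill-in value in all 6 libraries. Of single markers, 2 of 6 epicardial, 1 of 12 valve mesenchyme and 1 of 7 macrophage genes were called higher, where 2.82% of all genes were, and 1 of 17 cardiomyocyte genes was called lower, where 1.06% were. Their part in the lower RPKM of the tRNA genes was not tested.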

How the data were processed

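Reads from 6 libraries (3 Scx-/-, 3 Scx+/+ AVC regions) had been aligned by the authors to mm9 with TopHat 1.4.1 and counted over Ensembl exons with easyRNASeq. The authors deposited RPKM for each gene, filtered for low counts, with low values replaced by a common fill-in value. Strand of counting, and selection against rRNA or for polyadenylated RNA, are not given in the sources used here. How far library preparation retained RNAs as short as tRNAs is likewise unknown, and RPKM of short genes rests on few reads.

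From the deposited RPKM, whole reads and depth were recovered with exon lengths of the GENCODE annotation of mm9 (18695 of 18810 identifiers found), and 98.5% to 98.6% of values under 1000 reads came out whole within 0.1 read. These reads were used only for description, and the intervals they would give cover counting error only. The genotypes entered a two-sided limma fit (version 3.58.1, R 4.3.3) of log2(RPKM + 0.1), with variances moderated along an intensity trend and without covariates. Genes with an unadjusted p below 0.05, the threshold of the study, were called, and p-values adjusted by Benjamini and Hochberg across the 18810 genes are given beside the calls. Fold changes on this scale understate changes of low genes. The labels do not say that hearts with the same number share a litter, and p-values measure the spread between these hearts. An exact permutation of 3 against 3 cannot fall below 0.1 and was not used.

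Nuclear copies were found with blastn 2.17.0 (at least 100 bases, 90% identity). Python 3.11.15 with pandas 2.3.3 and numpy 2.4.6 did the rest. The limma fit alone was tested on simulated data, with normal noise independent between libraries and without fill-in values. The other steps were not tested in this way. Alternatives were pseudocounts of 0.01 and 1, a mean of at least 1 RPKM, no intensity trend, no pooled spread (log2 and linear), quantile normalization, the median log2 ratio set to 0, removal of trends on exon length and GC content, a replicate block, scaling to the mitochondrial mRNA sum, and each library left out. Named are all 37 genes, called genes of the pathway lists and the most abundant gene of each list. The members and lists were chosen with earlier results of these data known.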

Additional observations from a re-analysis of the deposited data

How the results depend on the processing

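Of the 37 mitochondrial genes 8 were called, all lower. The count was 7 to 12 with other pseudocounts, the filter on low values and other scalings and 6 with exon length and GC trends removed, but 3 without the intensity trend, 2 with the spread not pooled (mt-Tv and mt-Tw) and 1 on linear RPKM (mt-Tv), where each gene is judged on its own 3 and 3 values. Beside the 8, mt-Rnr1 was called in 4 of these settings, mt-Rnr2 and mt-Te in 2 each and the mRNA mt-Co1 in 1. Leaving out 1 library gave 2 (without Scx+/+ 1) to 8, against 539 to 1549 for all genes. In these fits mt-Rnr1, mt-Tm, mt-Nd6 and mt-Te, not among the 8, were each called 1 time. Of the nuclear pathway genes 4 were called, but 2 without the intensity trend, 1 with the median log2 ratio set to 0, 1 with exon length and GC trends removed, 2 in the replicate block, and 1 to 35 with a library left out. Same-numbered libraries did not deviate together (correlations 0.06, -0.16 and -0.12 over genes). With deviations taken from means of 3 libraries, these correlations depend on each other and cannot show whether hearts shared a litter. The replicate block called 7 of the 37 genes and 573 of all. The split of all calls was 531 higher and 200 lower, but 281 and 365 with the median log2 ratio set to 0, 352 and 353 after quantile normalization and 299 and 362 with exon length and GC trends removed. The causes were not tested. Depth limits the tRNAs most, since mt-Tw, mt-Ta, mt-Tf and mt-Tk gave under 70 reads in every library, and the fold changes of genes with 0 reads in a library depend on the pseudocount.

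Small fold changes that were not called turned direction. With the median log2 ratio set to 0, mt-Nd1 was -0.089, mt-Nd3 -0.049, Gfm1 -0.055 and Cox6b1 -0.016. With exon length and GC trends removed, mt-Nd1 was -0.17, mt-Nd3 -0.013, Cox20 (Fam36a) -0.033, Ptcd3 -0.022 and Gfm1 -0.063. After quantile normalization Gfm1 was -0.063 and Cox6b1 -0.0039. Scaled to the mitochondrial mRNA sum, mt-Nd1 was -0.15, mt-Co2 -0.0059 and mt-Nd3 -0.11. Leaving out 1 library turned the direction of 19 uncalled mitochondrial and 4 uncalled nuclear genes, whose log2 fold changes have the following ranges. They ran for mt-Tl1 from -0.15 to 0.65, mt-Nd1 from -0.22 to 0.26, mt-Tq from -0.87 to 0.22, mt-Tm from -0.60 to 0.085, mt-Nd2 from -0.26 to 0.18 and mt-Ty from -1.12 to 0.46. They ran for mt-Ts1 from -0.20 to 0.23, mt-Td from -0.20 to 0.64, mt-Co2 from -0.089 to 0.41, mt-Tk from -0.38 to 0.80, mt-Atp8 from -0.019 to 0.49 and mt-Co3 from -0.11 to 0.39. They ran for mt-Tg from -0.54 to 0.026, mt-Nd3 from -0.17 to 0.29, mt-Nd4l from -0.29 to 0.12, mt-Th from -0.56 to 0.26, mt-Cytb from -0.47 to 0.016 and mt-Tt from -0.62 to 0.47. They ran for mt-Tp from -0.58 to 0.26, Ptcd3 from -0.013 to 0.34, Gfm1 from -0.14 to 0.27, Trnt1 from -0.035 to 0.40 and Cox6b1 from -0.14 to 0.44. The difference in the mitochondrial share of reads, 0.626 percentage points, ran from -0.713 to 1.76 with a library left out, 1.02 without the rRNAs, 1.55 as a share of the RPKM sum and 0.771 as a share of all reads counted, the last chosen after seeing the data.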
